A study of Mus musculus with 6 samples.

Results

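Alternative splicing is set by RNA-binding proteins whose levels differ between cell types, and the values described here are those of 10 genes for such regulators in cultured mouse cells, namely embryonic stem cells (ESCs) and the neural progenitors made from them (NPCs). The genes were listed by identifier, with earlier results of these data known but by no threshold on their values, and all 10 had a row among the 17144 genes of the deposited table. They are Ptbp1 (ENSMUSG00000006498_at), Ptbp2 (ENSMUSG00000028134_at), Srrm4 (ENSMUSG00000063919_at), Esrp1 (ENSMUSG00000040728_at), Rbfox2 (ENSMUSG00000033565_at), Nova1 (ENSMUSG00000021047_at), Celf2 (ENSMUSG00000002107_at), Mbnl1 (ENSMUSG00000027763_at), Mbnl2 (ENSMUSG00000022139_at) and Qk (ENSMUSG00000062078_at). The ESCs were wild type cells of V6.5, a line derived from a blastocyst of the 129SvJae/C57B6 F1 background, grown in medium with serum and LIF. The NPCs were wild type cells derived in vitro from these ESCs and kept in N3 medium with bFGF and EGF, so both groups share 1 genotype and 1 parental line. RNA of 3 biological replicates of each cell type was hybridized to Affymetrix mouse expression arrays, 1 array per replicate. The NPC arrays titled NP106, NP107 and NP39 are replicates 1, 2 and 3. The labels do not say how the replicates were separated. The p-values of single genes set a difference of means against the spread among arrays of the same cell type. They reach no further than these 6 arrays.

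PTBP1 binds polypyrimidine tracts and represses neural exons in most non-neural cells and in progenitors, and its paralog PTBP2, also called nPTB, takes its place as neurons form. SRRM4, RBFOX, NOVA and CELF proteins act on exons used in neurons, ESRP1 sets exon choices typical of epithelial cells, MBNL proteins promote exon choices of differentiated cells over those of pluripotent cells, and QKI, the product of Qk, acts in neural progenitors and glia. Much of this control is exerted by position, since the same protein can repress an exon when bound before it and promote the exon when bound after it. The arrays give 1 value per gene, and they measure neither exon inclusion nor protein.

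Called differentially expressed were 6 of the 10 genes, 5 of them higher in NPCs (Nova1, Celf2, Mbnl1, Mbnl2 and Qk) and 1 lower (Esrp1), at an adjusted p under 0.05 from limma and a difference of means over 1.5-fold. The same rule called 34.1% of all 17144 genes, with 15.4% above and 18.7% below their ESC level. That balance depended on scaling, since the higher genes were 45.1% of all calls as reported and 55.6% with median centring. Ptbp1, Ptbp2, Srrm4 and Rbfox2 were not called. The arrays of the cell types did not overlap at the same 6 genes, against 58.7% of all genes, with 26.1% of all genes above and 32.6% below the ESC arrays in every NPC array. The difference exceeded 2 on the log2 scale, in either direction, at 4 of the 10 genes and at 7.88% of all genes. The median difference of the 10 genes was 0.42 on the log2 scale, beside -0.036 over all genes, a value that moved to 0.12 when each array was centred on its median. Shifts of that size turned the sign of some of the genes that were not called, and this is given with each of them.

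**Figure D1:**
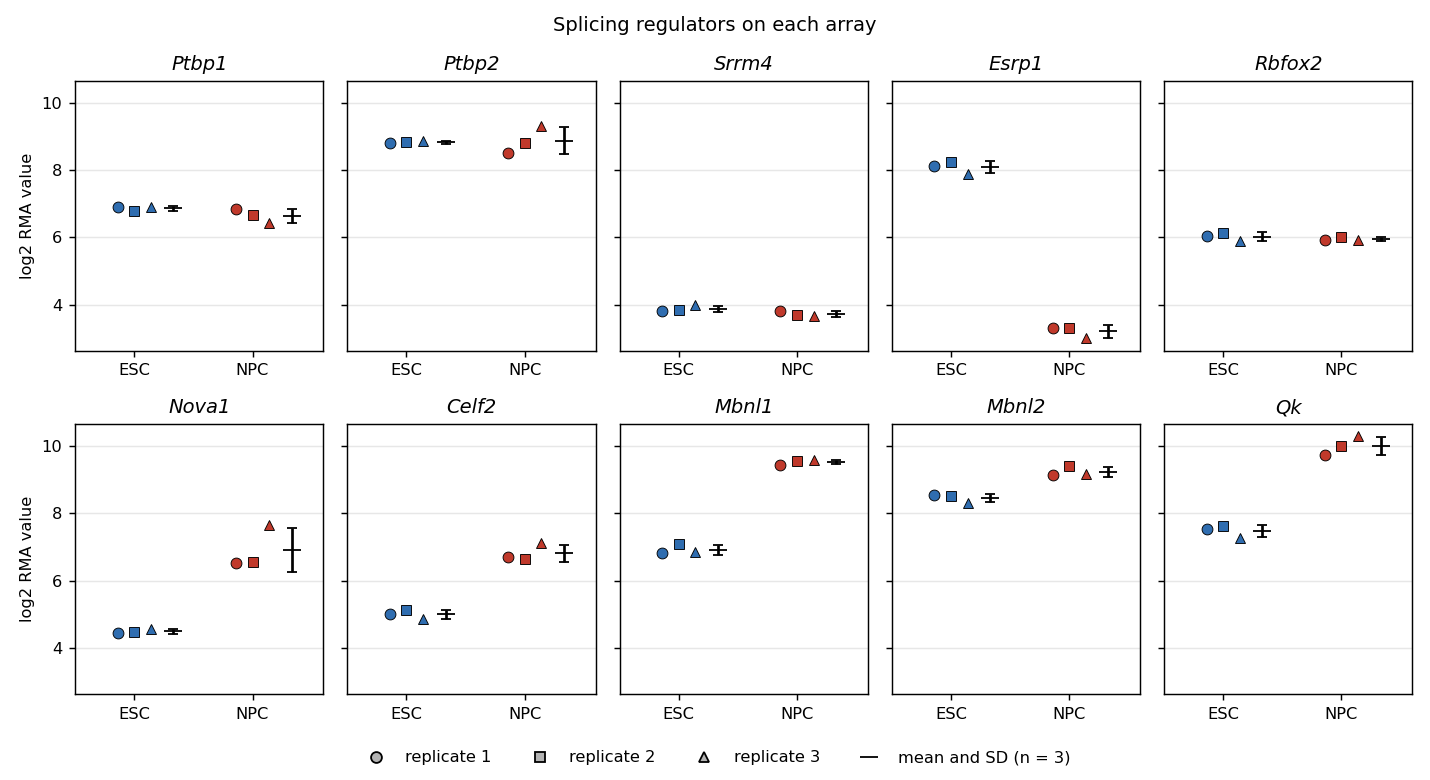
The log2 RMA value of each of the 10 genes on each array is plotted (vertical axis, log2 scale), with ESCs in blue, NPCs in red, a symbol for each replicate and the mean with its SD (n = 3 arrays) beside the points. Esrp1 drops from about 8.09 to 3.20, Nova1, Celf2, Mbnl1, Mbnl2 and Qk lie higher on every NPC array, and the arrays overlap for Ptbp1, Ptbp2, Srrm4 and Rbfox2. Heights are not comparable between genes, whose probes differ.

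Before single genes are described, the quality of the arrays has to be considered. Across genes, the correlation of NPC replicate 3 with replicates 1 and 2 was 0.978 and 0.979, below the 0.996 to 0.998 found for every other pair within a cell type, and the difference of each of the 10 genes is therefore also given without it. The labels were checked on the named marker genes. Pou5f1, which encodes the pluripotency factor OCT4, fell by 8.74 on the log2 scale in NPCs (adjusted p = 9.32e-09, limma). Of 8 progenitor markers 4 could be named, and Nes, Fabp7, Vim and Slc1a3 all rose, by 2.05, 9.27, 3.29 and 3.66. Names came almost only from printed rows of genes higher in NPCs (2000 of the 2004 named genes), so the naming largely set this direction. Of 8 pluripotency markers 1 could be named, and of 6 fibroblast markers 1, Twist1, which went from 4.28 to 6.72.

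The first question concerned PTBP1 and PTBP2. The study reported SOX2 at the promoters of both genes in NPCs and described the pair as a switch in neuronal commitment. At the gene level, neither differed beyond the spread of the arrays. Ptbp1 read 6.90, 6.78 and 6.90 in ESCs and 6.85, 6.65 and 6.43 in NPCs on the log2 scale. NPC replicate 1 lay within the range of the ESC arrays, and the other NPC arrays lay below it. The means were 6.86 ± 0.07 (SD, n = 3 arrays) and 6.64 ± 0.21 (SD, n = 3 arrays), and the difference of -0.22 on the log2 scale had a 95% interval of -0.50 to 0.06 (adjusted p = 0.174, limma). A fall larger than 0.50 or a rise larger than 0.06 thus lies outside that interval. Without NPC replicate 3, the lowest of the 6 arrays, the difference was -0.11, and centring each array on its median left -0.065.

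Ptbp2, by contrast, was nearly constant in ESCs and spread widely in NPCs. Its ESC arrays read 8.79, 8.82 and 8.86 and its NPC arrays 8.50, 8.80 and 9.31. The ESC values thus lay within the range of the NPC values, with 1 NPC array above all of them and 1 below. The difference of the means was 0.05 on the log2 scale, with a 95% interval of -0.40 to 0.51 (adjusted p = 0.862, limma), and without NPC replicate 3 it became -0.17 (adjusted p = 0.200). The SD was 0.03 in ESCs and 0.41 in NPCs. NPC replicate 3 lay 0.66 above the mean of replicates 1 and 2, a gap reached or passed in either direction by 9.11% of all genes.

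The ratio of the paralogs within each array was examined next, because a switch changes the ratio even when either gene alone changes little. The study placed the switch in neuronal commitment, whereas these arrays compare ESCs with NPCs and include no neurons. The values below therefore do not test that switch. On the log2 scale, Ptbp2 minus Ptbp1 was 1.89, 2.03 and 1.96 in ESCs and 1.66, 2.15 and 2.88 in NPCs. Probe sets of different genes bind with different strength, so a single ratio has no meaning by itself and only its change between arrays is read. NPC replicate 3 had the highest ratio of the 6 arrays and NPC replicate 1 the lowest, a range of 1.22 among NPC arrays. The ratio changed by 0.27 between the cell types (standard error 0.36, exact two-sided permutation test, p = 0.7, also 0.7 after adjustment over the 2 paralog pairs tested), and without NPC replicate 3 by -0.057. In that test 3 arrays against 3 cannot give a p below 0.1. Among the NPC arrays, the 1 with the lowest Ptbp1 value also had the highest Ptbp2 value, and the 1 with the highest Ptbp1 value had the lowest Ptbp2 value, an order of 3 arrays that was not tested.

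**Figure D2:**
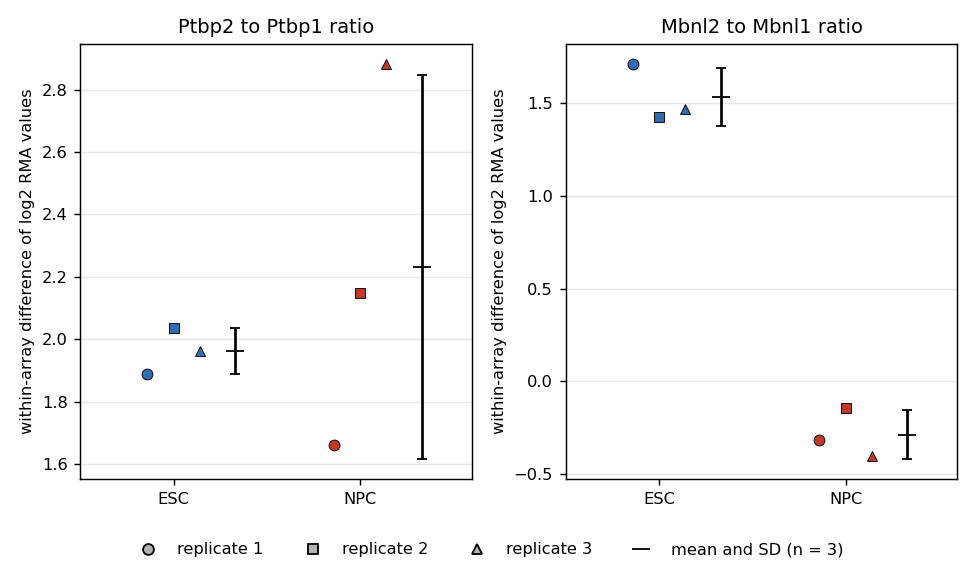
The within-array difference of log2 RMA values is plotted for Ptbp2 minus Ptbp1 (left) and Mbnl2 minus Mbnl1 (right) on each array, with ESCs in blue, NPCs in red, a symbol for each replicate and the mean with its SD (n = 3 arrays). The Ptbp2 to Ptbp1 ratio runs from 1.66 to 2.88 in NPCs around the ESC values, while every NPC array lies below every ESC array for the Mbnl2 to Mbnl1 ratio. The vertical axes differ and do not start at 0.

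The promoters of the regulators were read from RefSeq (build GRCm38.p6), which lists 13 starts for 8 of the 10 genes, with 250 bases before and 50 after each start. They are shown for the paralogs that the study discussed and, with the rising genes, for comparison. Short motifs were searched on both strands, namely the SOX motif CTTTGTT, the octamer ATGCAAAT bound by POU factors, and the E-box CACCTG. Each printed sequence holds at most 1 match, so no matches overlap there, and capitals mark it. The SOX motif was found at 2 of the 13 starts, beside 5.85% of all 32851 promoters in the table, and the octamer and the E-box at 0 of the 13, beside 1.74% and 20.2%. The start of Ptbp1, on chromosome 10, holds 1 of the SOX matches, and the start of Ptbp2, on chromosome 3, holds no match.
Ptbp1, chr10:79854182-79854481, plus strand: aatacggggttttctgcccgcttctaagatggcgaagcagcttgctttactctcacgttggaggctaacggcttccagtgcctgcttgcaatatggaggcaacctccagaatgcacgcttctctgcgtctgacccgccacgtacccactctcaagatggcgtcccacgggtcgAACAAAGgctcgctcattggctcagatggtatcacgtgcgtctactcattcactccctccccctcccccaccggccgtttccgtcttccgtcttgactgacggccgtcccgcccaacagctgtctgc
Ptbp2, chr3:119783339-119783638, minus strand: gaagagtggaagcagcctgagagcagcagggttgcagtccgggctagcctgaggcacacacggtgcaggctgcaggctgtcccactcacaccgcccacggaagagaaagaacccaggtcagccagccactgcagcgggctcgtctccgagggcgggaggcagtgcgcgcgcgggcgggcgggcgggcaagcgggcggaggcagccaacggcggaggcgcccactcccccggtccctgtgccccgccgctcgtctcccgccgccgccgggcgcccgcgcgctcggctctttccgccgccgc
A match describes letters in this window and is no measurement of binding. The study reported SOX2 at the promoters of both Ptbp1 and Ptbp2 in NPCs. It counted a wider region around a start as promoter, and most of that region was not searched here. The lack of a match at Ptbp2 is therefore no contrast to the reported binding.

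Srrm4 encodes nSR100, which promotes the inclusion of neural microexons and of the exon that allows Ptbp2 protein to be made. It read 3.82, 3.83 and 3.98 in ESCs and 3.82, 3.70 and 3.66 in NPCs on the log2 scale, so that NPC replicate 1 fell among the ESC arrays and the others lay below them. The difference was -0.15, with a 95% interval of -0.36 to 0.06 (adjusted p = 0.208, limma), without NPC replicate 3 it was -0.12, and with median centring it was 0.0032, on the other side of 0. The gene stood at percentile 22.5 of the genes of an array in ESCs and 20.9 in NPCs, among the lower values, where an array may not separate a low transcript from background. Detection calls were not used here.

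Esrp1 showed the widest difference among the 10 genes. ESRP1 directs the epithelial exon choices of Fgfr2, Cd44, Ctnnd1 and Enah transcripts, and ESCs grow as compact epithelial colonies. Esrp1 read 8.13, 8.24 and 7.89 in ESCs and 3.31, 3.30 and 3.00 in NPCs on the log2 scale. All NPC arrays lay far below all ESC arrays. The mean went from 8.09 ± 0.18 (SD, n = 3 arrays) to 3.20 ± 0.18 (SD, n = 3 arrays) a difference of -4.88 log2 units (SE 0.13, 95% interval -5.19 to -4.57, adjusted p = 3.05e-07, limma), or 29.5-fold. Without NPC replicate 3 the difference was -4.78. In percentile among the genes of an array Esrp1 went from 79.9 to 9.49, below the lowest quartile of the NPC arrays, which stood at 3.92 to 3.93 on the log2 scale. There an array may not separate a transcript from background, so the fold and its interval describe the deposited values, and how far background limits them was not tested. In such bulk samples, fewer cells with a transcript and less of the transcript per cell cannot be told apart. None of the 5 epithelial marker genes that had been listed could be named, so no epithelial marker stands beside this result.

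RBFOX2 binds UGCAUG elements in introns and is made in stem cells as well as in neural and epithelial cells. Rbfox2 had the smallest difference of the 10 genes after Ptbp2. It read 6.05, 6.14 and 5.88 in ESCs and 5.93, 6.01 and 5.91 in NPCs on the log2 scale, and all NPC values lay within the range of the ESC values. The difference of -0.07 had a 95% interval of -0.29 to 0.15 (adjusted p = 0.585, limma), and without NPC replicate 3 it was -0.052. Its sign depended on scaling, with 0.04 after quantile normalization and 0.08 after median centring. Together with Ptbp1, Ptbp2 and Srrm4, the gene had an interval within 1.5-fold in either direction, which is 0.585 on the log2 scale. These intervals bound the size of a change in the deposited values as scaled there and do not show that the levels were equal. With median centring the difference of Ptbp2 was 0.20, and no interval is given for that scaling. For Srrm4, whose values were low, the interval may not bound a change in the transcript.

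Nova1 encodes a regulator known mainly from neurons, and the product of Celf2 acts in other tissues as well. NOVA1 binds YCAY clusters in neuronal transcripts, and CELF2 binds UG-rich elements and acts in brain, heart and lymphocytes. Nova1 read 4.43, 4.48 and 4.57 in ESCs and 6.52, 6.56 and 7.66 in NPCs on the log2 scale. The groups did not overlap, and NPC replicate 3 stood well above replicates 1 and 2. Its mean rose from 4.49 ± 0.07 (SD, n = 3 arrays) to 6.91 ± 0.65 (SD, n = 3 arrays), a difference of 2.42 (standard error 0.29, 95% interval 1.73 to 3.11, adjusted p = 0.000378, limma), or 5.34-fold. Without NPC replicate 3 the difference was 2.04. Replicate 3 lay 1.12 above the mean of replicates 1 and 2, which made Nova1 the 1 gene of the 10 with a gap over 1 on the log2 scale, beside 4% of all genes.

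Celf2 read 5.00, 5.13 and 4.86 in ESCs and 6.71, 6.63 and 7.11 in NPCs on the log2 scale, again with every NPC array above every ESC array. The NPC mean was 1.82 higher (SE 0.14, 95% interval 1.48 to 2.16, adjusted p = 4.52e-05, limma), or 3.53-fold, and 1.67 without NPC replicate 3. Both genes moved from below the array median in ESCs, at percentiles 32.9 and 40.2, to 65.9 and 64.6 in NPCs. Values of neuron markers stand beside these genes for comparison. Of 8 neuron markers 3 could be named, each from printed rows of genes higher in NPCs, so the naming largely set their direction. Dcx read 4.86, 5.06 and 3.76 in NPCs against 3.33 to 3.68 in ESCs, and Syt1 read 6.93, 7.02 and 4.90 against 3.58 to 3.82. Map2 read 9.03, 9.26 and 9.75 against 4.12 to 4.68. Nova1, Celf2 and Map2 were thus highest in NPC replicate 3, where Dcx and Syt1 were lowest among the NPC arrays. The Dcx value of 3.76 in NPC replicate 3 lay below the lower quartile of that array, 3.93. In ESCs Dcx and Syt1 stood at percentiles 14.8 and 19.1. At such low values an array may not separate a transcript from background. The part of neurons in these results was not tested.

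RefSeq lists 5 starts for Celf2, and 1 of them, on chromosome 2, holds the other SOX match among the 13 starts. It is printed because Celf2 was the only called gene with a listed start that had a match (Esrp1 had no entry in the table).
Celf2, chr2:6721613-6721912, minus strand: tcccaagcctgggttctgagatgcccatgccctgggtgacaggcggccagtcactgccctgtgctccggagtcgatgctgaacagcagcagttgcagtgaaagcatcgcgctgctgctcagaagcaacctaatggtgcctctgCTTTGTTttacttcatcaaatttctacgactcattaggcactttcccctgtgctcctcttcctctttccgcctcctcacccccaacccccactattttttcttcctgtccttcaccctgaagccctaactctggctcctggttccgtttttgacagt
Its GC content was 54%, whereas the start at chr2:6871986-6872285 had 80.3%. The array value does not say from which start the transcripts came.

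MBNL1 and MBNL2 are zinc finger proteins that bind YGCY motifs and oppose the exon choices of pluripotent cells. Both genes rose, by unequal amounts. Mbnl1 read 6.83, 7.08 and 6.84 in ESCs and 9.45, 9.54 and 9.58 in NPCs on the log2 scale. The NPC arrays lay close together and far above the ESC arrays. The mean rose from 6.92 ± 0.14 (SD, n = 3 arrays) to 9.52 ± 0.07 (SD, n = 3 arrays), a difference of 2.60 (standard error 0.10, 95% interval 2.37 to 2.84, adjusted p = 1.26e-06, limma), or 6.08-fold, and 2.58 without NPC replicate 3. Mbnl2 was already at percentile 83.7 in ESCs. It read 8.54, 8.50 and 8.30 in ESCs and 9.13, 9.40 and 9.17 in NPCs, without overlap, and its difference of 0.78 (standard error 0.11, 95% interval 0.53 to 1.04, adjusted p = 0.00076, limma) was 1.72-fold, and 0.81 on the log2 scale without NPC replicate 3. With a threshold of 2-fold in place of 1.5-fold it was not called.

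The unequal rise was examined within arrays. Mbnl2 minus Mbnl1 was 1.71, 1.42 and 1.46 in ESCs and -0.32, -0.14 and -0.40 in NPCs on the log2 scale. Every NPC array was below every ESC array. The change of the ratio was -1.82 log2 units (SE 0.12, exact two-sided permutation test, p = 0.1, the smallest the design allows, and 0.2 after adjustment over the 2 pairs), and with each array left out in turn it lay between -1.89 and -1.73. The change in the ratio exceeded the spread among replicates, with SDs of 0.16 in ESCs and 0.13 in NPCs.

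Mbnl1 has 2 listed starts on chromosome 3, 1 rich in GC and 1 poor in it (75% and 39.3%). The start rich in GC is printed because Mbnl1 is among the genes that rose most, and it holds none of the 3 motifs.
Mbnl1, chr3:60500929-60501228, plus strand: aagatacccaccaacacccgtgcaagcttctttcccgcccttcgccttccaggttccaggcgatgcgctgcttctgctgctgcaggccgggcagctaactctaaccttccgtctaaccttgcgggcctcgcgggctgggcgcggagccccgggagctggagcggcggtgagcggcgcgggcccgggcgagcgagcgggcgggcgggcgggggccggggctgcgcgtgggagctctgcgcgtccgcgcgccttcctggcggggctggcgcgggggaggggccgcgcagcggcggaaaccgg

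Qk encodes QKI, a STAR protein that binds ACUAAY elements and controls splicing, export and stability of transcripts in glia and in neural progenitors. It read 7.53, 7.63 and 7.26 in ESCs and 9.74, 9.99 and 10.28 in NPCs on the log2 scale. No array overlapped, and replicate 3 was again the highest. The mean rose from 7.47 ± 0.19 (SD, n = 3 arrays) to 10.00 ± 0.27 (SD, n = 3 arrays), a difference of 2.53 (standard error 0.16, 95% interval 2.15 to 2.91, adjusted p = 1.51e-05, limma), or 5.78-fold. Without NPC replicate 3 it was 2.39. Qk went from percentile 72.3 to 95.1 among the genes of an array. Values of the glial markers that could be named stand beside it for comparison. Olig2, of the oligodendrocyte lineage, read 11.07, 10.96 and 11.67 in NPCs against 7.41 to 7.45 in ESCs, and S100b, made mainly by astrocytes, read 6.32, 6.13 and 7.02 against an ESC mean of 3.98. They were 1 of 5 and 1 of 4 markers listed. Both were named from rows of rising genes, so the naming largely set their direction. Their part in the rise of Qk was not tested.
Qk, chr17:10319312-10319611, minus strand: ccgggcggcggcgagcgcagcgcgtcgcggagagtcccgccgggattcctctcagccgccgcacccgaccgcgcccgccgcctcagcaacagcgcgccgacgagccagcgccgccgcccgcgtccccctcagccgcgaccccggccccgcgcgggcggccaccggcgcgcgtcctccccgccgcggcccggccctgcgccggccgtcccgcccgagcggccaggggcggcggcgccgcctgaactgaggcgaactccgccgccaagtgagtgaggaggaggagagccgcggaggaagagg
This start of Qk, shown as the richest in GC of the 13 starts at 81.7%, had 1.15 times the CpG expected from its bases, and holds none of the 3 motifs. The median promoter of the table had a GC content of 52.7% and a CpG ratio of 0.38, and 9 of the 13 starts lay above that ratio.

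Set side by side, the rises of Mbnl1, Qk and Nova1 had overlapping 95% intervals. Whether separate intervals overlap is no test of a difference between genes, whose probes differ, and the order of the rises was not tested. The interval of Celf2, 1.48 to 2.16, ended below that of Mbnl1 and overlapped those of Qk and Nova1. The interval of Mbnl2 ended below that of each of the 4 other rising genes. The spread among arrays was larger in NPCs than in ESCs for 7 of the 10 genes, one of them Srrm4 with nearly equal SDs, and for 65.4% of all genes. NPC replicate 3 was the highest NPC array for 5 genes (Ptbp2, Nova1, Celf2, Mbnl1 and Qk) and the lowest for 4 (Ptbp1, Srrm4, Esrp1 and Rbfox2). Over all genes it was the highest NPC array at 37.9% and the lowest at 41.5%.

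**Figure D3:**
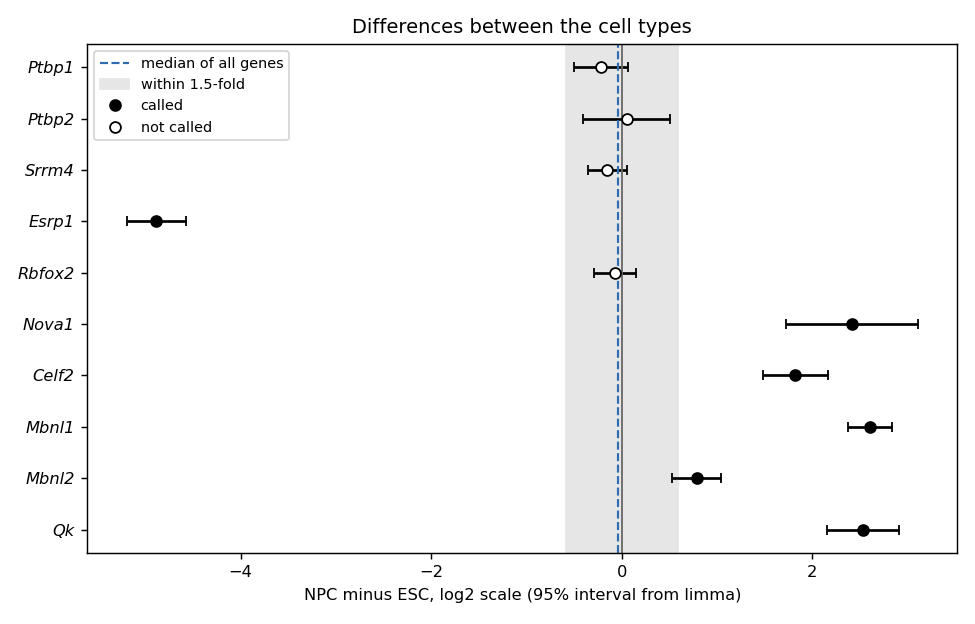
For each gene, NPC minus ESC in log2 units (horizontal axis) is drawn with its 95% interval from limma (n = 3 arrays of each cell type). Filled points were called and open points were not, the grey band spans 1.5-fold in either direction, and the dashed line marks the median of all genes at -0.036. Esrp1 stands at -4.88, the points of 5 genes stand to the right of the band, and the intervals of Ptbp1, Ptbp2, Srrm4 and Rbfox2 stay within it.

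Other splicing genes could be followed only where a printed row gave their name. Of 12 paralogs of the 10 genes, 11 SR proteins, 19 hnRNP proteins and 16 core spliceosome proteins none was named, and no value is given for them. Of 37 other RNA-binding regulators 4 were named, and Rbm24, Khdrbs3, Tia1 and Msi2 rose by 2.78, 2.32, 1.27 and 1.09 on the log2 scale (adjusted p of 0.00259 or less, limma), Tia1 and Msi2 being named after their values were seen. Of 14 transcripts known as targets of the 10 regulators, Dlg4 and Cd44 were named. Dlg4 encodes PSD-95, and PTBP1 and PTBP2 keep it low by skipping an exon, which leads to decay of the transcript. It read 4.30, 4.33 and 4.34 in ESCs and 5.31, 5.13 and 5.41 in NPCs, which is 0.96 higher (SE 0.09, adjusted p = 0.000129, limma). Cd44, whose variable exons ESRP1 promotes, read 5.82, 5.71 and 5.63 in ESCs and 9.56, 9.56 and 8.11 in NPCs, which is 3.36 higher (SE 0.37, adjusted p = 0.000252, limma) and 3.84 higher without NPC replicate 3. All 6 of these genes were named from rows of genes higher in NPCs, so their direction was set by the naming, and the exons used were not measured.

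**Figure D4:**
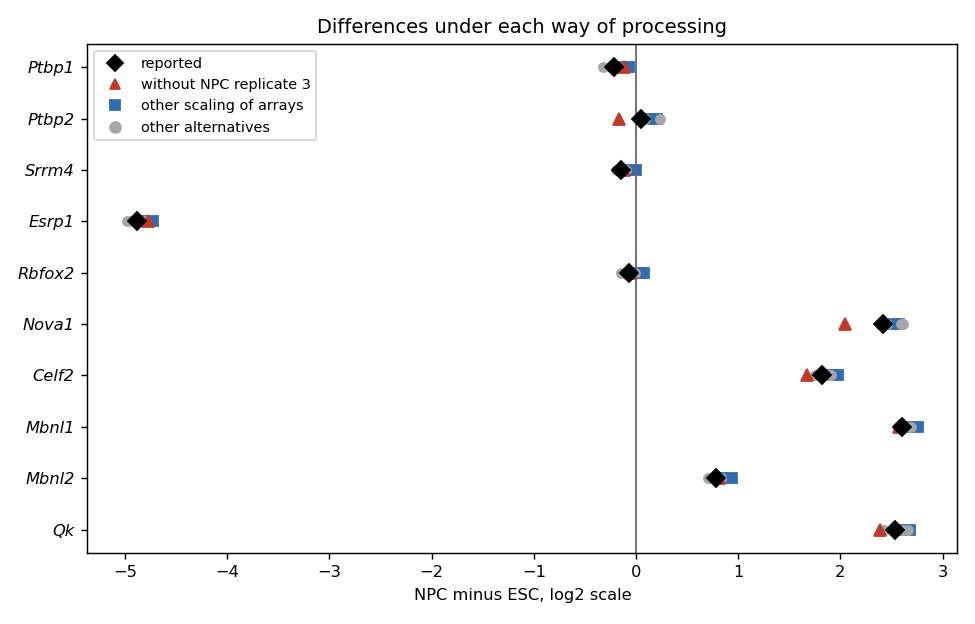
For each gene, NPC minus ESC in log2 units (horizontal axis) is drawn as reported (black), without NPC replicate 3 (red), with arrays rescaled by quantile normalization or median centring (blue) and under the other alternatives (grey). The 6 called genes keep their side of 0, with Nova1 between 2.04 and 2.61, while points of Ptbp2, Srrm4 and Rbfox2 lie on both sides of 0.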

How the data were processed

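The authors hybridized RNA of 3 ESC and 3 NPC replicates to Affymetrix mouse arrays and summarised each Ensembl gene by RMA (robust multi-array averaging) with an updated probe annotation. The deposited values are on the log2 scale. Neither the version nor the build of that annotation is stated in the sources used here. Of 17208 rows, 64 control probe sets were left out, and the values were otherwise used as they stand. Cell types and replicate numbers came from the sample labels. Depth does not apply to arrays, and their number limits the precision.

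The 10 genes and all lists were chosen with earlier results of these data known. The symbols of the 10 genes came with the rule that lists them, and 4 of them (Nova1, Celf2, Mbnl1 and Qk) were also found in the paper's tables by an equal value on all 6 arrays, within 0.0001. That match named 2004 genes, 2000 of them higher in NPCs. The RefSeq table at hand holds no Ensembl identifiers. A list was to be described as a whole only where at least 80% of its genes had a name, which no list reached.

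One model per gene was fitted to the 6 arrays by limma (version 3.58.1, R 4.3.3; lmFit, then eBayes) without covariates. p-values of all 17144 genes were adjusted together by the Benjamini-Hochberg method. Calls needed an adjusted p below 0.05 and more than 1.5-fold, the thresholds of the study, which used a moderated Welch test instead. That test was rebuilt as an alternative. Paralog ratios were compared by an exact permutation test. By rule, the text names the 10 genes, the markers and, of each list, the 2 largest rises and falls among called genes whose arrays do not overlap. Tests were tried on simulated arrays first. Percentiles are shares of the genes of an array. Tables were made with Python 3.11.15 and pandas 2.3.3.

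Alternatives were the moderated Welch test, a mean-variance trend, median centring, quantile normalization, a block for the replicate number, a filter at the 25th percentile, no fold threshold or one of 2-fold, and each array left out.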

Additional observations from a re-analysis of the deposited data

How the results depend on the processing

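Changing only the test, the replicate block, the filter or the fold threshold left each difference as it was, so its direction could not turn there. Dropping the fold threshold could not remove a call. Of 139 values of the 10 genes under an alternative, these included, 134 kept both their direction and their side of the thresholds. Exceptions were the difference of Rbfox2, at 0.036 after quantile normalization and 0.082 after median centring, that of Srrm4, at 0.0032 after median centring, that of Ptbp2, at -0.17 without NPC replicate 3, and that of Mbnl2, which at 0.78 was not called with a threshold of 2-fold. That threshold is above its 1.72-fold change. Median centring moves every gene of an array by the same amount, and the array medians were 5.75 to 5.76 in ESCs and 5.59 to 5.61 in NPCs. Leaving out NPC replicate 3 takes away the highest Ptbp2 value. Why the arrays differ in these ways was not tested. Without each array in turn, the differences lay between -0.32 (without NPC replicate 1) and -0.11 (without NPC replicate 3) for Ptbp1, -0.17 and 0.23 for Ptbp2, -0.20 and -0.10 for Srrm4, -4.98 and -4.78 for Esrp1, -0.14 and -0.014 for Rbfox2, 2.04 and 2.61 for Nova1, 1.67 and 1.91 for Celf2, 2.56 and 2.69 for Mbnl1, 0.70 and 0.84 for Mbnl2, and 2.39 and 2.66 for Qk, and 6 of the genes were called each time. With 2-fold, 5 were called. The change of the Ptbp2 to Ptbp1 ratio ran from -0.057, without NPC replicate 3, to 0.56, and that of Mbnl2 to Mbnl1 from -1.89 to -1.73. Over all genes 5851 were called, between 5637 and 6199 without an array, 8407 with no fold threshold and 3592 with 2-fold, as a looser or stricter threshold must give. The share of calls that were higher in NPCs was 45.1%, and quantile normalization made it 50.6% and median centring 55.6%.

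ESC and NPC arrays carry the same replicate numbers, 1 to 3. For same-numbered arrays, the correlation of their deviations from the mean of their cell type was 0.026, 0.011 and -0.0064, and the numbers were not taken to pair them. With the number as a replicate block 5867 genes were called, among them 6 of the 10, and no call of theirs changed. The filter left out Srrm4. Signal near background may limit the values of Srrm4 and, in NPCs, of Esrp1, which was not tested.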
